A study of Mus musculus with 6 samples.

Results

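The genes described here are Nnt, Wdfy1, Entpd4 and Entpd4b, 4 of the 45777 genes in the count table of tibialis anterior (TA) muscle from aged mice. They were chosen by symbol from the TPM tables and joined by gene identifier to the raw counts, because their levels in these libraries were already known to differ between animals. The 6 libraries were made from the muscle of 6 male mice, all given the strain name C57BL/6J and an age of 24 months in the sample labels. The control group received vehicle only (3 mice). The treated group received BML-260, a small molecule used to inhibit the phosphatase DUSP22, at 5 mg/kg by daily intraperitoneal injection for 1 month (3 mice). The study's text gives ages that differ somewhat from the labels. All animals came from 1 supplier. The study's methods name the sequenced mice C57BL/6, and use C57BL/6J for mice of some other experiments. Its reagent table lists C57BL/6J mice with the stock name B6.129P2Gpr37tm1Dgen/J. No library of a second substrain was analysed here, so the label that these genes vary between substrains could not be checked against a known genotype. Total RNA was sequenced, and the libraries held between 39522890 and 56998875 counted reads.

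C57BL/6 is the inbred strain most used in mouse research, and colonies kept apart for many generations have drifted into substrains that differ at a limited number of sites. The best known is in Nnt, nicotinamide nucleotide transhydrogenase, an enzyme of the inner mitochondrial membrane that uses the proton gradient to make NADPH, from which the mitochondrion regenerates glutathione and thioredoxin. C57BL/6J mice carry an Nnt allele that lacks several internal exons and gives no functional enzyme, whereas C57BL/6N mice carry the complete gene. Wdfy1 encodes a protein with WD repeats and a FYVE domain that sits on early endosomes and serves as an adaptor for the innate receptors TLR3 and TLR4. Entpd4 encodes a nucleoside diphosphatase of the Golgi apparatus and lysosomes, and Entpd4b is its copy on the same chromosome. The mouse assembly to which reads were mapped (mm10, also called GRCm38) was built from C57BL/6J, so that reads from Nnt exons absent from it could not be counted.

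Nnt (gene identifier 18115) lies at chr13:119335527-119409257 and is read from the minus strand. Wdfy1 (69368) lies at chr1:79702262-79776143, also on the minus strand. Entpd4 (67464) lies at chr14:69337151-69366742 and Entpd4b (100862375) at chr14:69555401-69584940, both on the plus strand of GRCm38. In the GENCODE M21 annotation the Entpd4 pair start 218250 bases apart and end 218250 bases apart. Of the 6 annotated Entpd4 transcripts, 5 are identical in length and sequence to an Entpd4b transcript, at 418, 989, 2623, 2946 and 3589 bases, and the sixth, of 1842 bases, is contained whole within an Entpd4b transcript. The following 90 bases of exon 3, which is 198 bases long in both genes, are printed to show what a read would meet at each copy, in lower case throughout because no base differs (Entpd4-206, chr14:69349073-69349162, and Entpd4b-204, chr14:69567323-69567412, plus strand, GENCODE M21 transcripts).
Entpd4-206: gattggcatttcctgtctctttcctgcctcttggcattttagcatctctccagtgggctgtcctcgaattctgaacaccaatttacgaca
Entpd4b-204: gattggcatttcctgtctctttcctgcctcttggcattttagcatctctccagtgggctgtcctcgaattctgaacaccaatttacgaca

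The identity of the pair showed in the counts. Entpd4 had 4492, 1198 and 1081 reads in vehicle replicates 1, 2 and 3, and 4938, 1950 and 1461 reads in BML-260 replicates 1, 2 and 3. In the same order Entpd4b had 4512, 1204 and 1083 reads with vehicle and 4984, 1961 and 1465 reads with BML-260. Entpd4b was therefore ahead by 20, 6 and 2 reads in the vehicle libraries and by 46, 11 and 4 reads in the BML-260 libraries. For separately counted reads, the counting SD of such a difference would be between 46.5 and 99.6 reads. The genes differed by less than this in all 6 libraries. The rule by which reads matching both copies were counted is not given in the sources used here. The pair is described below as 1 measurement, mostly by Entpd4, and how much RNA came from either copy could not be told apart.

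Before the results of the drug groups are given, 1 library needs mention. Vehicle replicate 3 had the highest level of the 6 libraries for 5079 of the 16188 tested genes (31.4%), and it had the highest value of every tested macrophage (6), erythroid (5), adipocyte (4) and Schwann cell (5) marker. The summed TPM of the adipocyte markers was 189 there and between 8.41 and 11.6 elsewhere, and that of the Schwann cell markers was 107 against 22.1 to 33.4. The erythroid sum was 8752 against 1619 to 2162, and the macrophage sum was 445 against 67.3 to 104. Lep, an adipocyte marker with too few reads to be tested, went the other way. It had 4, 9 and 0 reads in vehicle replicates 1, 2 and 3 and 10, 19 and 7 with BML-260. It had no TPM, so the adipocyte sum leaves it out. All 8 skeletal muscle markers were tested genes and summed to between 89081 and 126892 TPM, so the tissue label was met by its markers. The Y-linked genes were present in all 6 libraries (Ddx3y, between 5844 and 8343 normalised counts) and Xist had at most 2.89 normalised counts, and all 6 mice were labelled male. In whole muscle, fewer cells of a type and less RNA per cell cannot be told apart.

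Levels are given as TPM, which is scaled for gene length and so allows genes to be set side by side, or as normalised counts, which are reads brought to a common depth by TMM factors. Nnt was measured at 7.98, 45.4 and 131 TPM in vehicle replicates 1, 2 and 3. With BML-260 it was at 8.88, 57.2 and 45.8 TPM in replicates 1, 2 and 3. Replicate 1 of each group was thus low and the other 4 libraries were high, with vehicle replicate 3 highest of all. In normalised counts the low libraries had 832 (vehicle) and 1013 (BML-260), and the other 4 had between 4669 and 9763. The gap between these sets was 4.61-fold in normalised counts, and the highest library had 11.7 times the normalised counts and 16.4 times the TPM of the lowest. Nnt reads were present in every library, with 864 raw reads in the lowest.

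Wdfy1 was low in the same libraries as Nnt. It stood at 3.06, 9.19 and 12.8 TPM in vehicle replicates 1, 2 and 3. The BML-260 replicates had 3.84, 10.5 and 10.3 TPM. The 4 high libraries lay close together in normalised counts, between 1214 and 1316, and the low libraries had 364 and 407. The step between the sets was 2.99-fold, and unlike Nnt, vehicle replicate 3 was not the highest library in normalised counts (1214). The smallest count of any of the 4 genes, 378 reads of Wdfy1 in vehicle replicate 1, carries a counting SD of 5.14%, far below these differences.

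Entpd4 was high where Nnt and Wdfy1 were low. Its TPM was 49.1, 16.6 and 12.8 in vehicle replicates 1, 2 and 3. In the BML-260 replicates it was 44.5, 23.0 and 21.0 TPM. Normalised counts of the replicates numbered 1 were nearly equal, at 4325 with vehicle and 4293 with BML-260, and those of the other 4 libraries lay between 808 and 1951. The gap was 2.20-fold, and vehicle replicate 3, the highest library for Nnt, was the lowest for Entpd4. Entpd4b had 50.2, 17.0 and 13.1 TPM with vehicle and 45.7, 23.5 and 21.4 TPM with BML-260, and the summed TPM of the pair ran from 25.9 in vehicle replicate 3 to 99.3 in vehicle replicate 1. Reads counted at both copies, if any, would enter that sum more than once.

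The order of the genes by TPM changed between libraries. In vehicle replicate 1 and BML-260 replicate 1, Entpd4 stood above Nnt, and Nnt above Wdfy1. In the other 4 libraries Nnt stood above Entpd4, and Wdfy1 was again the lowest. The plot of TPM by library shows all 24 values.

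**Figure D1:**
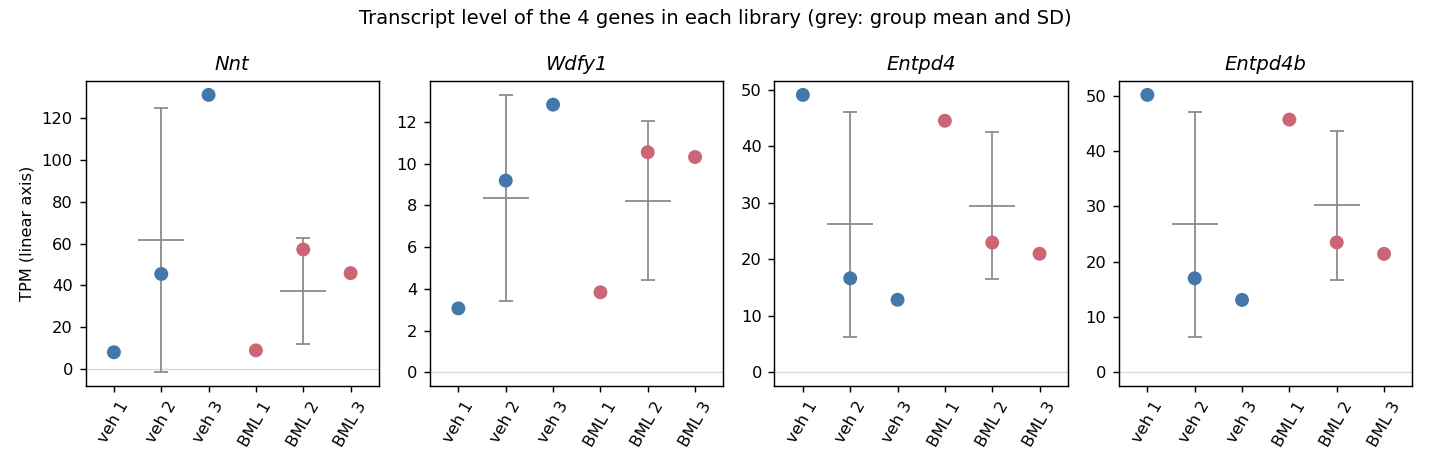
TPM (linear axis) of Nnt, Wdfy1, Entpd4 and Entpd4b in each of the 6 libraries, with vehicle (veh) in blue, BML-260 (BML) in red, and the group mean and SD in grey. Replicate 1 of both groups is low for Nnt (7.98 and 8.88) and high for Entpd4 (49.1 and 44.5), so each group holds 1 library of one kind and 2 of the other.

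The same 2 libraries thus stood on one side of the largest gap for each of the 4 genes, below it for Nnt and Wdfy1 and above it for the Entpd4 pair. The largest gap is the biggest step between neighbouring libraries when the 6 are put in order of log2 CPM. It was 2.20 for Nnt, 1.57 for Wdfy1 and 1.14 for Entpd4, against a median of 0.37 over all tested genes. A gap as large as that of Nnt was found in 397 of the 16188 tested genes (2.45%), one as large as that of Wdfy1 in 804 (4.97%), and one as large as that of Entpd4 in 1485 (9.17%), whichever libraries it separated. These values describe genes that were chosen for this pattern and carry no test. Nothing in the labels says that equal replicate numbers in the groups share a cage, a litter or a day of processing.

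**Figure D2:**
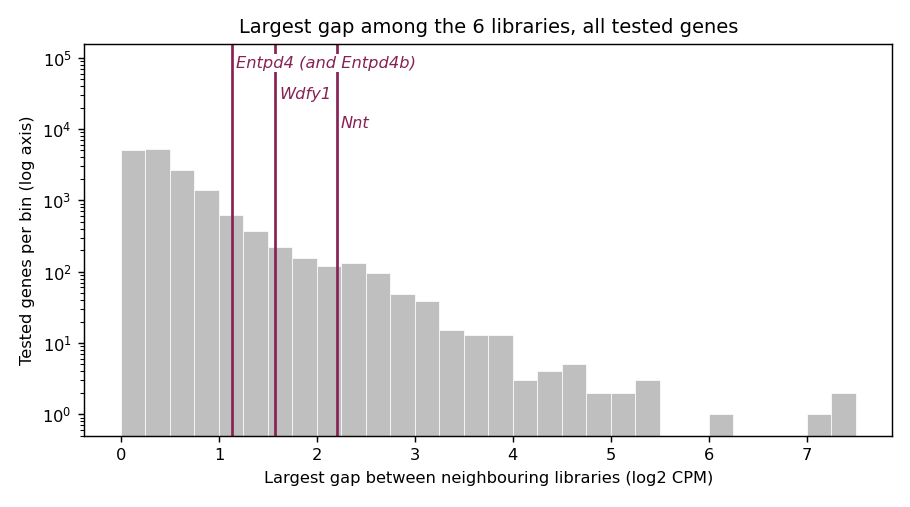
Number of tested genes (log axis) by the largest gap between neighbouring libraries, in log2 CPM and bins of 0.25, with lines at Nnt, Wdfy1 and the Entpd4 pair. The lines lie at 2.20, 1.57 and 1.14, to the right of the median of 0.37, and larger gaps occur in other genes.

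Against the drug groups, the pattern ran crosswise. With BML-260, Nnt averaged 37.3 ± 25.3 TPM (SD, n = 3), beside 61.5 ± 63.1 TPM (SD, n = 3) with vehicle. Wdfy1 averaged 8.23 ± 3.81 TPM with BML-260 and 8.36 ± 4.94 TPM with vehicle. In normalised counts Wdfy1 averaged 1011 with BML-260 and 945 with vehicle, so the direction of its small difference depended on the scale. The log2 fold change of BML-260 over vehicle was -0.45 for Nnt (SE 0.81), 0.10 for Wdfy1 (SE 0.53) and 0.27 for both Entpd4 and Entpd4b (SE 0.58 each). Each value was smaller than its SE, and the groups overlapped in all 4 genes. The threshold that the study drew on its volcano plot, used here for calls, is an unadjusted p under 0.05 together with a change of 1.3-fold or more. It called 0 of the 4 genes, where 931 of all 16188 tested genes were (5.75%). Of those 931 calls, 786 were lower and 145 higher with BML-260. Groups without overlap were found in 0 of the 4 genes and in 12.1% of all tested genes. Since these 4 genes were chosen for a pattern that crosses the groups, their counts are a description. Entpd4 and Entpd4b are both counted in them, though the pair is treated as a single measurement. With edgeR's quasi-likelihood test and Benjamini-Hochberg adjustment, 0 of all tested genes had an adjusted p under 0.05 (0%), beside 966 with an unadjusted p under 0.05 and 95 with an adjusted p under 0.05 in DESeq2.

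The sign of these fold changes turned with a single library. For Nnt, the log2 fold change went to 0.40 without vehicle replicate 3 and to -0.95 without vehicle replicate 1. Wdfy1 moved to -0.29 without vehicle replicate 1 and to 0.48 without BML-260 replicate 1. Entpd4 moved to -0.24 without BML-260 replicate 1 and to 1.19 without vehicle replicate 1. When replicates of equal number were set side by side in normalised counts, BML-260 over vehicle came to 1.22, 1.15 and 0.478 for Nnt in replicates 1, 2 and 3. The corresponding ratios were 1.12, 1.04 and 1.08 for Wdfy1 and 0.992, 1.26 and 2.24 for Entpd4. The replicates numbered 1 and 2 were within 1.26-fold of each other for these genes, and those numbered 3 differed most for Nnt and Entpd4, in opposite directions.

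The neighbourhood of each gene was examined to see whether levels split the same way nearby. The 5 nearest tested genes on each side gave 32 genes other than the 4. Around Nnt, the closest tested gene on one side was Paip1, which binds poly(A)-binding protein, with its start 92.8 kb away. On the other side it was Fgf10, a growth factor, 621 kb away and with at most 23.9 normalised counts in a library. Paip1 had between 2259 and 2933 normalised counts across the 6 libraries, and Mrps30, of the mitochondrial ribosome, had between 1136 and 1282. Next to Wdfy1, Mrpl44, another protein of the mitochondrial ribosome, had 1161, 1062 and 708 normalised counts with vehicle and 1005, 1049 and 1082 with BML-260. Serpine2, a secreted protease inhibitor, had 4432, 3140 and 2619 normalised counts with vehicle and 4751, 4044 and 3347 with BML-260, so that replicate 1 was the highest in each group, by less than the step in Wdfy1 and in the opposite direction to it.

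Near the Entpd4 pair, several other genes were also highest in replicate 1 of both groups, and 2 of these overlap a copy. Gm16867 starts within Entpd4 and shares 3453 bases with it. Its normalised counts were 150, 43.9 and 56.8 with vehicle and 184, 23.0 and 44.6 with BML-260. Gm27177, a long non-coding RNA gene, shares 3401 bases with the end of Entpd4b and had 80, 0 and 1 reads with vehicle and 99, 3 and 0 with BML-260. Replicate 1 of each group was again high and the other libraries were at or near 0, which put this gene below the filter on low counts, so that it was not tested. Gm27222, a long non-coding RNA gene that lies inside Slc25a37, had 17, 0 and 0 reads with vehicle and 42, 0 and 0 with BML-260. Reads of genes that overlap can be split between them, and for a count of 0 up to 3 reads are allowed by counting error alone. Gm27177, Gm27222 and Gm16867 were singled out after their values were seen.

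Gm21451, between the copies, had 202, 148 and 101 normalised counts with vehicle and 182, 74.0 and 114 with BML-260, so that replicate 1 was again above the other 4 libraries. Rhobtb2, which starts 448 kb from the Entpd4 start, had 1313, 877 and 581 normalised counts with vehicle and 1365, 1166 and 1067 with BML-260. Replicate 1 of both groups was highest and vehicle replicate 3 lowest, as for Entpd4, over a smaller range. The protein-coding genes Slc25a37, Loxl2 and Chmp7 did not split in this way. Slc25a37, the mitochondrial iron importer mitoferrin-1, had 574, 624 and 764 normalised counts with vehicle and 593, 492 and 480 with BML-260. Loxl2, a collagen crosslinking enzyme, had 453, 413 and 292 with vehicle and 384, 244 and 327 with BML-260. Chmp7, of the ESCRT-III membrane remodelling complex, stayed between 1738 and 2046 in all 6 libraries.

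**Figure D3:**
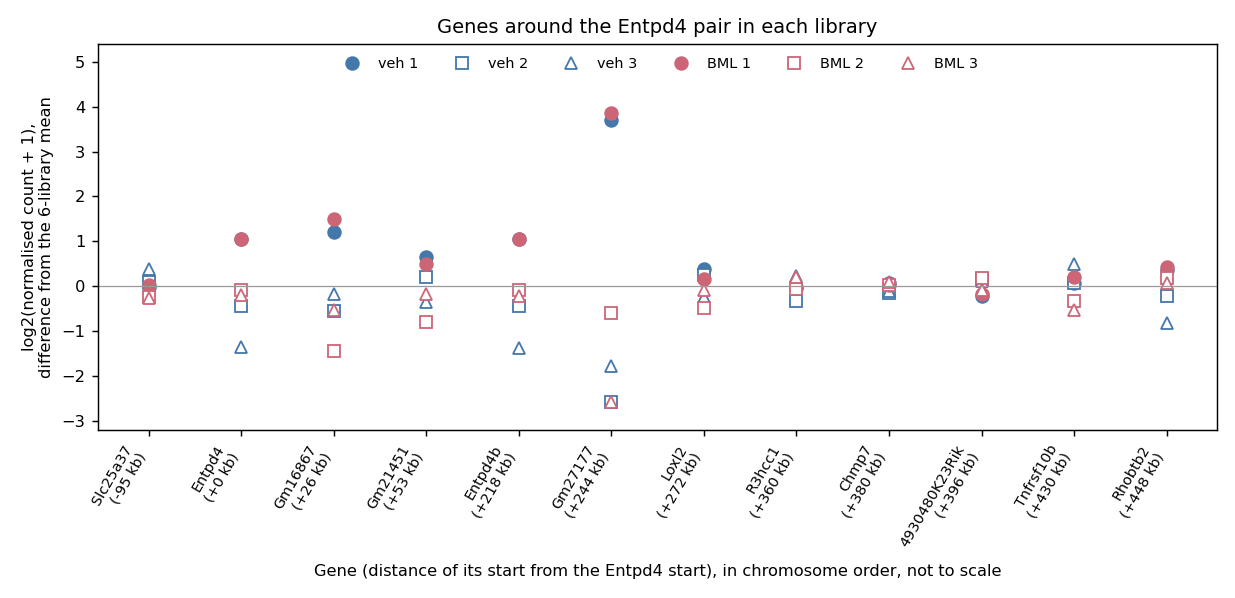
log2(normalised count + 1) of each library minus the mean of the 6 libraries, for 12 genes within 250 kb of the Entpd4 pair that reach 50 reads in a library, in chromosome order with the distance of each start from the Entpd4 start (vehicle blue, BML-260 red, replicate 1 filled). Replicate 1 of both groups lies above the other 4 libraries at Entpd4, Gm16867, Gm21451, Entpd4b, Gm27177 and Rhobtb2, with smaller distances at Gm21451 and Rhobtb2, and the libraries lie close together at Chmp7.

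By drug group, 12 of the 32 neighbours were higher and 20 lower with BML-260, with a median log2 fold change of -0.06, beside a median of 0.00 over all tested genes. At the volcano threshold 4 of the 32 were called, beside 5.75% of all tested genes, and 0 had an adjusted p under 0.05. Tmem267, near Nnt, had 662, 395 and 471 normalised counts with vehicle and 952, 800 and 735 with BML-260, a log2 fold change of 0.70 (SE 0.21, edgeR adjusted p = 0.699). Utp14b and Gm5830 are near Wdfy1. Utp14b, a factor of ribosomal RNA processing, changed by -0.76 (SE 0.24, edgeR adjusted p = 0.699), and Gm5830, with at most 17.3 normalised counts in a library, by 1.40 (SE 0.57, edgeR adjusted p = 0.788). Stc1, a secreted glycoprotein hormone near Entpd4, had 28.9, 42.6 and 228 normalised counts with vehicle and 20.9, 28.0 and 28.5 with BML-260. Its log2 fold change was -1.97 (SE 0.74, edgeR adjusted p = 0.788) and went to -0.46 without vehicle replicate 3. The count of 4 fell to 2 without vehicle replicate 3, without BML-260 replicate 2 and without BML-260 replicate 3.

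A further 8 genes are known for differences between C57BL/6 substrains or colonies. Ide, an insulin-degrading protease, and Fgfbp3, a carrier of fibroblast growth factors, sit in a segment whose copy number varies among C57BL/6J colonies. Ide had 6514, 7927 and 5932 normalised counts with vehicle and 6838, 8144 and 6519 with BML-260, and Fgfbp3 had between 27.8 and 59.8. Replicate 2 of each group was the highest for Ide, and the highest library had 8144 normalised counts against 5932 in the lowest. Mmrn1 (multimerin-1), a protein of platelets and endothelium, had 159, 154 and 559 normalised counts with vehicle and 103, 255 and 73.0 with BML-260. It was present in every library and highest in vehicle replicate 3.

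Cyfip2, a subunit of the WAVE actin regulatory complex with a C57BL/6N variant, had 198, 90.3 and 182 normalised counts with vehicle and 186, 90.0 and 92.8 with BML-260. Replicate 1 of each group and vehicle replicate 3 were high, a different set from that of Nnt. Dock2, a leukocyte guanine nucleotide exchange factor partly duplicated in some C57BL/6N colonies, had 190, 328 and 270 normalised counts with vehicle and 206, 122 and 161 with BML-260. Nlrp12, an innate immune sensor, had 28.9, 12.9 and 29.2 normalised counts with vehicle and 0.869, 2.00 and 7.43 with BML-260. Crb1 and Gabra2, retinal and neuronal genes, were at 0 in 5 of the 6 libraries each and were not tested. Gpr37, a G protein-coupled receptor whose symbol is part of the stock name, had 0 reads in all 6 libraries, which allows up to 3 reads in each. No muscle of known Gpr37 genotype was at hand, so the level to be met in TA muscle with an intact gene is not known here. The genotype at Gpr37 was not tested.

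Of the 6 tested genes of this list, 1 was higher and 5 were lower with BML-260 (median log2 fold change -0.54, beside 0.00 over all tested genes). At the volcano threshold 2 were called, both lower, beside 5.75% of all tested genes, where 84.4% of the calls were lower. None of the list had an adjusted p under 0.05. The log2 fold changes were -2.85 for Nlrp12 (SE 0.77, edgeR adjusted p = 0.654) and -0.68 for Dock2 (SE 0.27, edgeR adjusted p = 0.788). Values for those not called were 0.08 for Ide, -0.39 for Fgfbp3, -1.02 for Mmrn1 and -0.35 for Cyfip2. For 3 of the 6 genes vehicle replicate 3 was the highest library. Without it, Mmrn1 was at -0.12. Only Nlrp12 was called without vehicle replicate 2 and without BML-260 replicate 3, and without BML-260 replicate 2 Dock2 (-0.51) was not called and Mmrn1 (-1.73) was. Of the macrophage markers, 5 of 6 (all but Cd68) were called lower with BML-260, of the erythroid markers 3 of 5, of the adipocyte markers 1 of 4 tested and of the Schwann cell markers 0 of 5. Over all 16188 tested genes, 786 were called lower. Vehicle replicate 3 was the highest library for every one of these tested markers, and their tallies were not repeated without it. The part of these cells in the values of the list was not tested.

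Other genes of NADPH supply and peroxide removal in mitochondria were set beside Nnt. All 20 were tested, 13 higher and 7 lower with BML-260 (median log2 fold change 0.09). At the volcano threshold 1 was called, beside 5.75% of all tested genes. This was Gpx1, a glutathione peroxidase of cytosol and mitochondria, with 2383, 2756 and 2613 normalised counts with vehicle and 2258, 1629 and 1707 with BML-260, a log2 fold change of -0.47 (SE 0.16, edgeR adjusted p = 0.782). It was no longer called without vehicle replicate 2, where Mthfd1l of the same list was (-0.73), without BML-260 replicate 2 or without BML-260 replicate 3. The main other makers of mitochondrial NADPH did not show the step of Nnt. Idh2, the NADP-dependent isocitrate dehydrogenase, had 5156, 6501 and 12365 normalised counts with vehicle and 5519, 7212 and 6572 with BML-260, so that replicate 1 was the lowest in each group but by far less than for Nnt. Me3, a mitochondrial malic enzyme, had 2666, 2824 and 1819 with vehicle and 3036, 3150 and 2816 with BML-260. Sod2, the mitochondrial superoxide dismutase, had 11557, 12099 and 5667 with vehicle and 13272, 13307 and 10978 with BML-260, lowest in the library in which Nnt was highest. Idh2, Me3 and Sod2 were picked out after their values were seen.

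The list around Wdfy1 held its relatives and the TLR3 and TLR4 pathway. Of 12 tested genes, 4 were higher and 8 lower with BML-260 (median log2 fold change -0.11). In this list 2 were called at the volcano threshold, both lower, beside 5.75% of all tested genes, where 84.4% of the calls were lower. None of the 12 had an adjusted p under 0.05. Tlr4, the receptor for bacterial lipopolysaccharide, had 1136, 1428 and 3202 normalised counts with vehicle and 706, 855 and 749 with BML-260, a log2 fold change of -1.32 (SE 0.35, edgeR adjusted p = 0.649). Without vehicle replicate 3 it was -0.73. Ticam2, the bridging adaptor TRAM, had 25.0, 23.2 and 47.1 normalised counts with vehicle and 11.3, 12.0 and 18.6 with BML-260 (log2 fold change -1.21, SE 0.48, edgeR adjusted p = 0.788). The count of 2 fell to 1, Tlr4, without vehicle replicate 3 and without BML-260 replicate 2, and without BML-260 replicate 1 Wdfy4 (-0.61) was called in place of Ticam2. Macrophages express Tlr4, and the macrophage marker sum given above was lower in each BML-260 library than in any vehicle library. Lyz2 made up the largest part of that sum. The marker Cd68 did not follow it, with a log2 fold change of 0.002. Cd68 had 256, 76.1 and 323 normalised counts with vehicle and 137, 229 and 296 with BML-260. The part of macrophages in the values of this list was not tested. The closest relative on the list, Wdfy2, also a FYVE and WD repeat protein of endosomes, had between 844 and 1018 normalised counts in the 6 libraries and showed no step of the kind seen in Wdfy1.

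For Entpd4, the list held the other ENTPD enzymes and genes of Golgi nucleotide sugar transport. Of 13 genes 11 were tested, 6 higher and 5 lower with BML-260 (median log2 fold change 0.12). Only Entpd1 (CD39), the cell surface ATP diphosphohydrolase of vessels and leukocytes, was called at the volcano threshold, beside 5.75% of all tested genes. Its normalised counts were 561, 636 and 1310 with vehicle and 434, 478 and 488 with BML-260, a log2 fold change of -0.84 (SE 0.30, edgeR adjusted p = 0.788), and it was at -0.36 and not called without vehicle replicate 3, where Entpd6 (0.45) was called in its place. Leaving out any BML-260 library took the count to 0, and leaving out vehicle replicate 2 took it to 2. Entpd5, a nucleoside diphosphatase of the endoplasmic reticulum, had 826, 788 and 545 normalised counts with vehicle and 945, 858 and 821 with BML-260. Entpd6 had between 321 and 547, and Cant1, another Golgi nucleoside diphosphatase, between 498 and 713. None of these 3 genes, chosen for their function after values were seen, was split between the libraries in the manner of Entpd4.

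**Figure D4:**
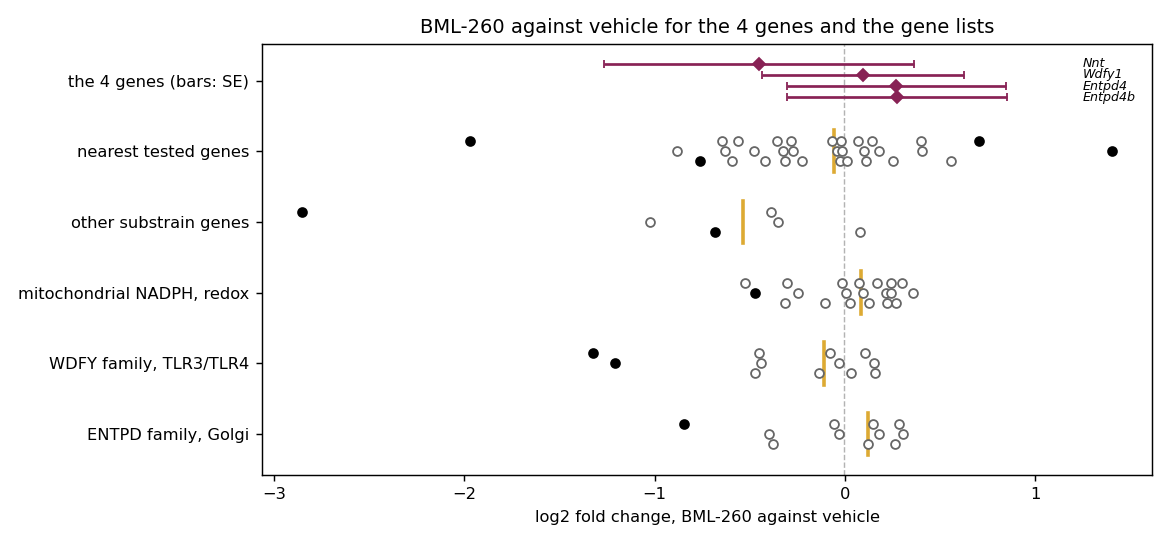
log2 fold change of BML-260 against vehicle for the 4 genes (diamonds with SE), their 32 nearest tested genes and the tested genes of 4 lists (open points not called, filled points called at the volcano threshold, yellow bars the list medians, dashed line the median of all tested genes). The 4 genes lie between -0.45 and 0.27 with SE bars that cross 0, and the medians of the neighbours and lists lie between -0.54 and 0.12.

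Genes whose levels across the 6 libraries were most like those of each gene were found by the root mean square difference of log2 CPM, after each gene's own mean was taken off. For Nnt these were Gm973 (0.474), Col25a1 (0.541) and Ltc4s (0.563), all with few reads, and Wdfy1 was the 7th nearest (0.597). For Wdfy1 the nearest were LOC115487569 (0.135), Gm46583 (0.295) and Nol4 (0.318), also with few reads. Nnt was not among the 10 genes nearest to Wdfy1, of which the last lay at 0.358. The gene nearest to Entpd4 was Entpd4b (0.00343), followed by Pthlh (0.194) and Aurka (0.224), with the same order for Entpd4b. With the sign of the differences turned, Entpd4b and Entpd4 were the 6th and 7th nearest genes to Nnt (0.568 and 0.570). Neither was among the 10 nearest to Wdfy1 in that turned comparison, of which the last lay at 0.386. Smox, spermine oxidase, was the 4th nearest to Nnt in that turned comparison (0.556), with 9067, 1482 and 904 reads in vehicle replicates 1, 2 and 3 and 8527, 3265 and 2521 reads in BML-260 replicates 1, 2 and 3. The likeness rests on 6 libraries of the same tissue and of unequal depth and is a description, with no test.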

How the data were processed

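RNA was harvested by the authors from TA muscle, and libraries were prepared with a stranded total RNA kit. The submitters' processing notes name the build mm10 and the tools StringTie 2.1.3b, Bowtie2 2.3.4.1, Trimmomatic 0.38 and HISAT2 2.1.0. The authors deposited raw read counts per gene for the 6 libraries in 1 table (45777 genes, no normalization) and TPM values per library (16800 genes, each with a count in every library). How reads that match several genes, or overlapping genes, were counted is not given in the sources used here. Names and positions came from the RefSeq table of GRCm38.p6 (45679 identifiers matched) and transcripts from GENCODE M21.

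BML-260 was compared with vehicle on the counts by edgeR 4.0.16 (R 4.3.3). Genes were filtered by filterByExpr with the group (16188 genes, 99.9% of counts), scaled by TMM and tested by the quasi-likelihood F-test, with p-values adjusted after Benjamini and Hochberg over all tested genes. Normalised counts are counts divided by the TMM effective library size relative to its geometric mean over libraries, and log2 CPM used a prior count of 2. The SE is the log2 fold change divided by the square root of F. The code was run on simulated counts with changes larger than the volcano threshold and no library set apart as vehicle replicate 3 is. That run therefore does not show how the method behaves with such a library or at 1.3-fold. The 4 genes and the gene lists were chosen with earlier results of these data known, so the 4 genes were given no p. Named genes are the 4, the genes of the substrain list (1 gene of it is not reported here, and the list's tallies were made without it), list genes and neighbours at the volcano threshold, and the 3 nearest patterns of each; others were named after their values were seen. With 3 mice per group, p-values set the difference between the groups against the spread estimated from these animals. Alternatives were other normalizations and filters, DESeq2 1.42.0, limma 3.58.1 on log2(TPM + 1) and log2(TPM + 0.1), a replicate block and leaving out each library.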

Additional observations from a re-analysis of the deposited data

How the results depend on the processing

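None of the 4 log2 fold changes moved by more than the SD between replicates under RLE or upper quartile scaling, other filters, DESeq2, limma on log2 TPM or the sum of the Entpd4 pair. Nnt stayed between -0.48 and -0.19 over those settings and the replicate block, Wdfy1 between 0.05 and 0.11, Entpd4 between 0.26 and 0.49, and Entpd4b between 0.27 and 0.49. Leaving out 1 library gave -0.95 to 0.40 for Nnt, -0.29 to 0.48 for Wdfy1, and -0.24 to 1.19 for Entpd4 and 1.20 for Entpd4b. The 931 calls of all tested genes became 1416 with no filter (at least 1 count) and 446 with limma on log2(TPM + 1), and ranged from 503 (without BML-260 replicate 2) to 2223 (without vehicle replicate 1). An adjusted p under 0.05 was reached by 0 genes in the edgeR fit, by 1 gene with no filter, by 1 gene with at least 10 counts in every library, by 95 genes with DESeq2, and by 0 to 9 genes without a library. Called neighbours (4) became 2 with limma on log2(TPM + 1) and 2 to 5 without a library. Called genes of the other substrain list (2) became 1 with at least 10 counts in every library, 1 with limma on log2(TPM + 1), 1 with limma on log2(TPM + 0.1) and 1 to 2 without a library. The counts of the redox list (1), the Wdfy1 list (2) and the Entpd4 list (1) ranged over 0 to 1, 1 to 3 and 0 to 2 without a library; limma on log2(TPM + 1) gave 1 for the Wdfy1 list and 0 for the Entpd4 list, and limma on log2(TPM + 0.1) gave 0 for the Entpd4 list. Limma on log2(TPM + 0.1) shifted the median over all genes to -0.14 on the log2 scale. No called gene among the neighbours and lists changed sign in any alternative, while Ide (0.08, not called) did in 4 of 14. Gm5830 was no longer called in 10 of 13 alternatives, and of 14 alternatives Stc1 was lost in 7, Entpd1 in 6, Dock2 in 5, Ticam2 in 4, Gpx1 in 3, Utp14b in 1, and Tmem267 and Tlr4 in 0. Nlrp12 was lost in 1 of 13. The causes were not tested. Equal replicate numbers do not pair the mice in the labels, and deviations of equal-numbered libraries correlated at 0.16, 0.05 and 0.11 (replicates 1, 2 and 3); with the replicate block, 1057 genes were called in all, 0 with an adjusted p under 0.05, with 2 neighbours and 1 gene of the other substrain list. Each library correlated best with its own number, though at these low values, and the reason was not tested. With 3 mice per group, leaving out a library leaves 2, and depth limits values of genes with few reads, such as Nlrp12, Gm5830 and Gm27222.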
